A study of Mus musculus with 8 samples.

Results

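The comparison was of mouse liver after 12 weeks of a high-fat diet with liver after 6 weeks of it, made within 2 genotypes and across all genes. It rests on 4 arrays of the 8 in the study, chosen by their labels alone: wild type (AIM+/+) at 6 weeks (HFD 6 W), wild type at 12 weeks (HFD 12 W), and AIM-/- (AIM-KO) at the same weeks. The other 4 arrays, of both genotypes on normal chow and at 20 weeks of diet, entered only the estimate of the spread. All mice had a C57Bl/6 background, and total RNA of the liver was labelled with Cy3 and hybridised to one-colour Agilent arrays. Cd5l encodes AIM (apoptosis inhibitor of macrophage), which macrophages of the tissues release into the blood, and AIM-/- mice lack it. Each group was 1 array. The age and the sex of the mice and the number of livers behind an array were not given in the sources used here. Nor were the promoter or cell type of the deletion. The p-values therefore speak of how far these arrays varied, which need not be how far animals vary. With 1 array per group, that spread is how far the gap between the genotypes differed from week to week.

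A diet rich in fat loads hepatocytes with triglyceride, and over weeks to months the liver can pass from simple fat storage to inflammation, in which monocyte-derived macrophages join the resident Kupffer cells, stellate cells make collagen and injured hepatocytes are replaced by division. Hepatocytes of a healthy adult liver seldom divide and express the enzymes of the urea cycle, bile acid synthesis and drug metabolism at high levels. In mice many of these liver genes also differ between males and females, under the control of the pattern of growth hormone release.

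Between 19219 and 19475 of 41174 probes were well above background on each of the 4 arrays, by the mark of the scanner software, and 14045 genes were compared. A gene is called measured where its probe was well above background on at least 2 of the 4 arrays. Signals in the text are in arbitrary units after each array was brought to a common 75th percentile of 273.4, and changes are log2 differences of 12 minus 6 weeks. Albumin (Alb), the defining hepatocyte product, was between 336350 and 421550 on the 4 arrays. Cd5l rested at 23327 (6 weeks) and 29441 (12 weeks) in wild-type liver and at 126 and 166 in AIM-/-, so the genotypes were far apart at both weeks. The Y-linked genes Ddx3y and Eif2s3y were well above background on all 4 arrays. Ddx3y was between 994 and 1111 on them, and it was 5.35 and 4.39 on the 20-week arrays, where the Xist signal was 775 and 735. The 20-week arrays therefore stood apart from the others in their sex-linked genes, and their part in the estimate of the spread is given with the counts below. The wild-type arrays shared one slide and the AIM-/- arrays another, so slide and genotype cannot be told apart. Each week took the same array position on both slides, so week, position, age and day of collection cannot be told apart either.

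From 6 to 12 weeks, 40 genes (0.285% of 14045) passed the threshold, an adjusted p under 0.05 in limma's moderated test with Benjamini-Hochberg adjustment over all genes. Of these, 31 rose (0.221%) and 9 fell (0.0641%). The coefficient tested is the mean of the 2 genotypes' own changes. All 40 had the same direction in both genotypes, which the test nearly fixes, because opposite changes lower the mean and widen the spread. Of the 31 rises 8 were in a list of mitosis genes, chosen with earlier results of these data known. Among these 8, Nuf2, Tpx2, Cenpf and Nusap1 had 6-week signals not well above background on either array. The organic anion transporter gene Slco1a1 had the largest fall. In 17 of the 31 rises the 6-week signal was not well above background on either array, and in 6 of the 9 falls the 12-week signal was not. Such genes could count as measured only through the arrays of the other week, which fixed their direction, and their p-values took the signals as measured. For these genes only a lower bound of the fold is given, set against the lowest signal that was marked well above background. That bound was at least 2-fold for the mean in 15 of these 23 genes, and at least 2-fold in each genotype in 10. The calls depended on the arrays outside the 2 weeks: limma on the 4 arrays alone left 1 residual degree of freedom and called 0 genes (2519 at an unadjusted p under 0.05, against 2717 with 8 arrays), and without the 20-week arrays it called 0 (2396). Leaving out the wild-type 6-week, wild-type 12-week or AIM-/- 12-week array also gave 0 calls by limma (1788, 2041 and 1232 at an unadjusted p under 0.05), and leaving out the AIM-/- 6-week array gave 2, none of them among the 40.

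A description that needs no estimate of the spread gave a wider set. At least 2-fold higher at 12 weeks in both genotypes were 424 genes (3.02%), and at least 2-fold lower in both were 121 (0.862%), together 545 (3.88%). These counts take the signals as measured, below background included. With signal well above background on all 4 arrays required, 248 were higher and 71 lower. In the wild type alone 849 genes (6.04%) were at least 2-fold higher and 465 (3.31%) lower, and in AIM-/- alone 886 (6.31%) were higher and 384 (2.73%) lower. The 424 shared higher genes were 49.9% of the wild-type list and 47.9% of the AIM-/- list. The 121 shared lower genes were 26.0% and 31.5% of the respective lists. Across genes, the changes in the 2 genotypes correlated with Pearson's r of 0.463 and Spearman's rho of 0.426 (14045 genes, which are not independent replicates and share each array's scaling), and 64.5% of genes had the same sign in both. The median change over all genes was -0.07 in the wild type and -0.02 in AIM-/-. Both 12-week arrays lay above both 6-week arrays for 22.5% of genes and below them for 30.2%, and the gene groups described below are to be read against these shares.

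**Figure D1:**
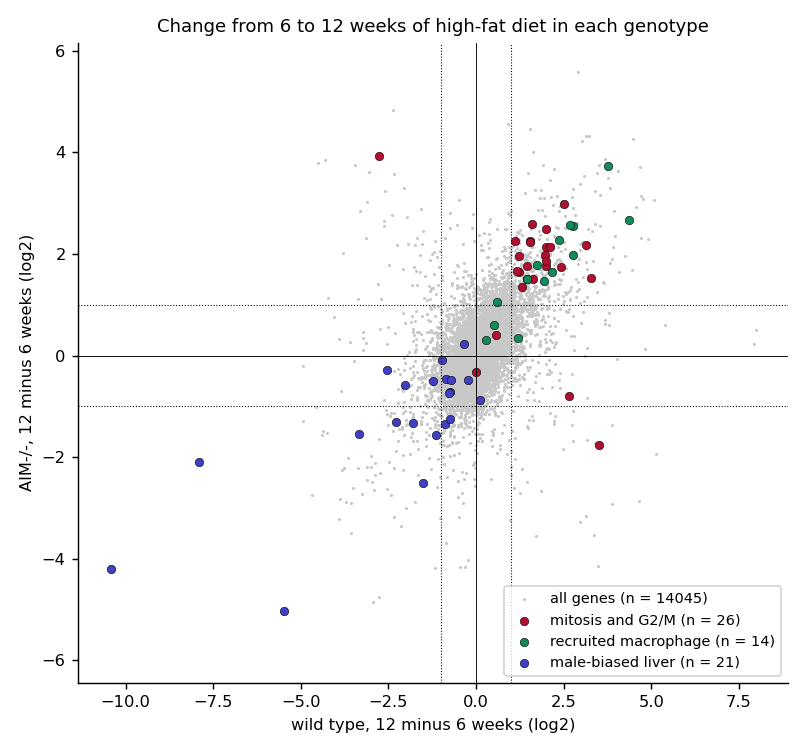
Change of each of 14045 genes from 6 to 12 weeks of diet on the log2 scale, in the wild type (horizontal axis) and in AIM-/- (vertical axis), with dotted lines at a 2-fold change. Genes of the mitosis list (red) and of the recruited macrophage list (green) lie mostly at the upper right, where both genotypes were higher at 12 weeks, and male-biased liver genes (blue) mostly in the lower left.

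Genes of cell division were higher at 12 weeks in both genotypes. Of 36 mitosis and G2/M genes, 26 were measured and 8 of these rose, 0 fell and 18 did not pass. At least 2-fold higher in both genotypes were 21 of the 26, and both 12-week arrays lay above both 6-week arrays for 22. The median change was 1.62 in the wild type and 1.81 in AIM-/-. Of the 26, 6 passed the filter on low signal only through the 12-week arrays, which fixes their direction. Over the 16 measured on all 4 arrays, 14 were at least 2-fold higher in both genotypes and 15 lay higher on both 12-week arrays. The genes past the threshold among these 16 were Plk1, Cdc20, Ccna2 and Kif20a. With normexp background correction the median of all members was 0.90 in place of 1.77. As measured, the median of the mean changes was 1.77, or 1.45 with genes below background at 6 weeks set at their bound. Plk1, the polo-like kinase that drives entry into and exit from mitosis, was 41.4 (6 weeks) and 166 (12 weeks) in the wild type and 74.6 and 326 in AIM-/-; pairs of signals below keep this order. Both 12-week signals lay above both 6-week signals, and Plk1 rose by 2.07 (SE 0.15, adjusted p = 0.0318). Cdc20, the activator of the anaphase-promoting complex, was 113 and 612 in the wild type and 229 and 771 in AIM-/- and rose by 2.09 (SE 0.21, adjusted p = 0.0429). The cyclin gene Ccna2 was 64.2 and 187 in the wild type and 63.9 and 307 in AIM-/-, so that the 6-week arrays were nearly equal, and it rose by 1.90 (SE 0.20, adjusted p = 0.0436). The mitotic kinesin gene Kif20a rose by 1.60 (SE 0.16, adjusted p = 0.0429). The kinetochore gene Nuf2 rose at least 2.75-fold (adjusted p = 0.0318) and the spindle assembly factor gene Tpx2 at least 2.16-fold (adjusted p = 0.0356). The centromere protein gene Cenpf rose at least 1.82-fold (adjusted p = 0.0354) and the spindle protein gene Nusap1 at least 1.73-fold (adjusted p = 0.0429). Each of these had a 6-week signal not well above background on either array, so the filter fixed its direction. Their p-values took the signals as measured, not at the bound. The proliferation marker Mki67 was 92.7 and 367 in the wild type and 112 and 633 in AIM-/-. Its difference of 2.24 did not pass (SE 0.27, adjusted p = 0.0596), although the weeks did not overlap. Kif11 and Melk, also in the list, differed in opposite directions in the 2 genotypes, each on signals well above background on 1 array a week.

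Further genes of chromosome segregation and cell cycle control outside that list also rose. Pkmyt1, the kinase that holds CDK1 inactive before mitosis, was 105 and 363 in the wild type and 88.9 and 304 in AIM-/- and rose by 1.78 (SE 0.16, adjusted p = 0.0354). Cdkn3, a phosphatase gene acting on cyclin-dependent kinases, was 54.6 and 224 in the wild type and 65.5 and 372 in AIM-/- and rose by 2.27 (SE 0.22, adjusted p = 0.0429). Ncapg2, a condensin II subunit gene, rose by 1.91 (SE 0.15, adjusted p = 0.0318), and the kinesin gene Kifc5b rose by 2.05 (SE 0.18, adjusted p = 0.0354). Sgo1, which protects the cohesion of sister chromatids, rose at least 2.97-fold from 6-week signals below background (adjusted p = 0.0429). Chtf18, a clamp loader subunit gene of the replication fork, rose by 2.06 with 1 of its 6-week signals well above background (SE 0.21, adjusted p = 0.0429). Ncapg2, Pkmyt1, Sgo1 and other rises with smaller coefficients lie outside the rule for naming genes and were chosen after their values were seen.

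Of 32 genes of DNA replication and S phase, 28 were measured, and none of them passed the threshold. Their levels moved the same way by less: 6 of 28 were at least 2-fold higher in both genotypes, and both 12-week arrays lay above both 6-week arrays for 20 and below for 2. Their median change was 0.98 in the wild type and 0.67 in AIM-/-. Mcm6, a subunit gene of the replicative helicase, was 1889 and 6082 in the wild type and 976 and 2946 in AIM-/-, 1.64 higher at 12 weeks (SE 0.26, adjusted p = 0.0911). Uhrf1, which carries DNA methylation through replication, was 87.2 and 386 in the wild type and 35.4 and 308 in AIM-/- (difference 2.63, SE 0.59, adjusted p = 0.117). Pcna, the sliding clamp gene, differed by 0.48 (SE 0.19, adjusted p = 0.26). Mcm10 went the other way, 18010 and 11274 in the wild type and 16227 and 8355 in AIM-/- (-0.82, SE 0.33, adjusted p = 0.258).

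**Figure D2:**
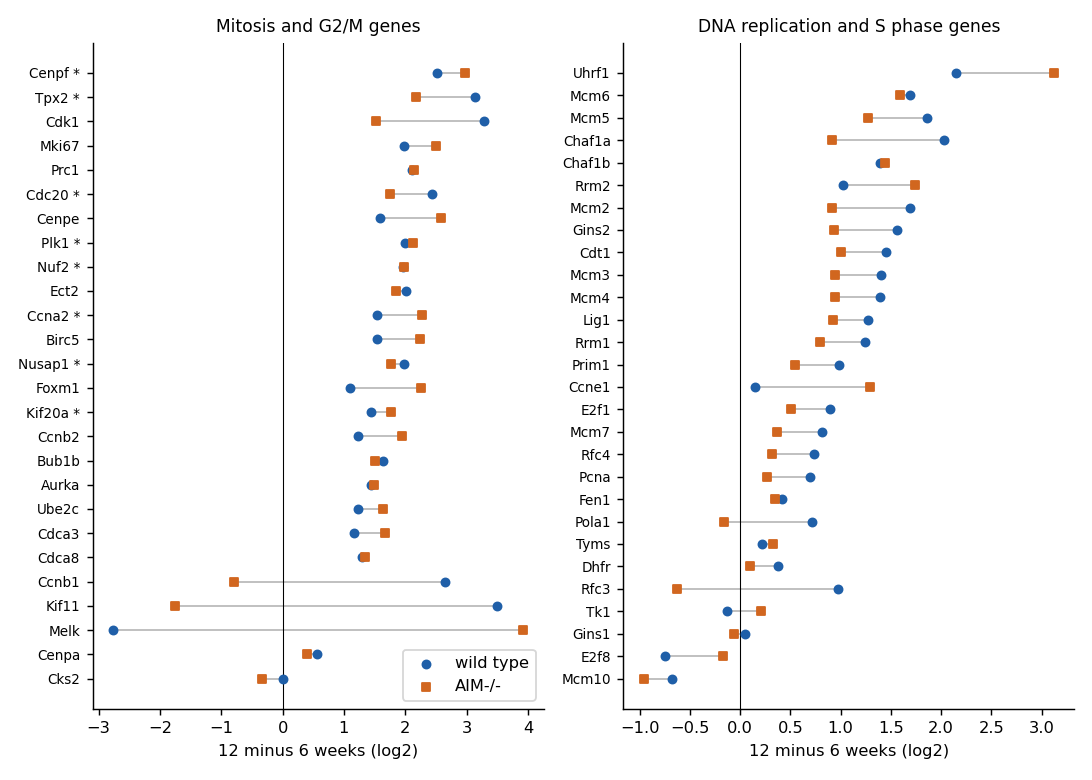
Change from 6 to 12 weeks (log2) of every measured member of the mitosis list (left, 26 genes) and the DNA replication list (right, 28 genes), in the wild type (blue circles) and in AIM-/- (orange squares), with a star at the 8 genes that passed the threshold. Both genotypes lie at or above a change of 1 for 21 of the mitosis genes and for 6 of the replication genes.

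The promoters of the 4 members of the mitosis and replication lists with the smallest p that the RefSeq table holds are shown because these genes moved together, and cell cycle promoters are known for CCAAT boxes, bound by NF-Y. Each is the stretch of 250 bases before the start of the gene in GRCm38.p6, 5′ to 3′ on the strand of the gene, with matches in capitals to the CCAAT box, to the core of the cell cycle homology region (TTTGAA) and to the E2F-type motifs TTGGCGC or TTCCCGC. Plk1 lies at chr7:122159185-122159434 on the + strand, Nuf2 at chr1:169531465-169531714 on the - strand, Cenpf at chr1:189688087-189688336 on the - strand and Cdc20 at chr4:118437344-118437593 on the - strand.
Plk1: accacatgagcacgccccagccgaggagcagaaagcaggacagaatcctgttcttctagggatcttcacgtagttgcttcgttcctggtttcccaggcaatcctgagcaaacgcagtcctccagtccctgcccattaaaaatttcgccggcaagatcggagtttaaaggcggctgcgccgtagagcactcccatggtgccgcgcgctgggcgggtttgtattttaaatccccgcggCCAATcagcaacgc
Nuf2: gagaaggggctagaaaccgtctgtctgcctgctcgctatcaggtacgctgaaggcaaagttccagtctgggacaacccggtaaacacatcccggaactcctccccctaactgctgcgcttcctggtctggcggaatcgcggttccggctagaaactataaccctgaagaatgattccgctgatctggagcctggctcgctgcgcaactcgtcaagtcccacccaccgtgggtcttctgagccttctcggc
Cenpf: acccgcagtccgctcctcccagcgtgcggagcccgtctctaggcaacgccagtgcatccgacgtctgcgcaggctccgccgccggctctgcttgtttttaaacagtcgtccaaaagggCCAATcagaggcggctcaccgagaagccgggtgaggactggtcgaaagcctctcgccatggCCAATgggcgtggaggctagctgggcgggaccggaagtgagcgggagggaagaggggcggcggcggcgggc
Cdc20: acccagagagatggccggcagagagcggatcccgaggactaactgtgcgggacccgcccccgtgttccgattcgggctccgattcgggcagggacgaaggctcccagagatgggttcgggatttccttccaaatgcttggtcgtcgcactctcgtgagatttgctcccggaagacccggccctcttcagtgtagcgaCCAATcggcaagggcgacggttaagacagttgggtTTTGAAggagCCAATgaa
Plk1 had 1 CCAAT box, Cenpf 2 and Cdc20 2 with 1 match to the homology region core, and none of these motifs was found in the Nuf2 window. On either strand, the CCAAT box was in 18 of 22 mitosis promoters (81.8%), in 15 of 24 replication promoters (62.5%) in 34.5% of 27025 promoters of the table and in 36.4% of the 9320 promoters of genes compared here. The homology region core was in 31.8%, 12.5%, 16.3% and 10.8% of the same sets. An E2F-type motif was in 13.6%, 41.7%, 5.71% and 9.81%. In 15 promoters of the male-biased liver genes described below, the CCAAT box was in 26.7%, the homology region core in 40% and an E2F-type motif in 0%. In 12 promoters of the recruited macrophage genes the same motifs were in 50%, 16.7% and 8.33%. The homology region core was thus not particular to the mitosis list. A match is a description of the sequence, and binding was not measured.

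Genes of recruited and lipid-associated macrophages were higher at 12 weeks in both genotypes. Of 20 listed genes 14 were measured and none passed the threshold, but both 12-week arrays lay above both 6-week arrays for all 14, and 10 were at least 2-fold higher in both genotypes. Of these 14, 2 passed the filter only through the 12-week arrays, and among the 12 measured on all 4 arrays 8 were at least 2-fold higher in both. Their median change was 2.06 in the wild type and 1.72 in AIM-/-. Spp1, osteopontin, a secreted protein of macrophages and bile duct cells, was 677 and 9281 in the wild type and 1975 and 26280 in AIM-/-. The AIM-/- level was higher at each week, while the change was 3.78 in the wild type and 3.73 in AIM-/- (mean 3.76, SE 0.55, adjusted p = 0.0854). Trem2, a lipid receptor of these macrophages, was 203 and 1058 in the wild type and 360 and 1742 in AIM-/- (2.33, SE 0.50, adjusted p = 0.112). The tetraspanin gene Cd63 was 243 and 1566 in the wild type and 606 and 3592 in AIM-/-, and Itgax, which encodes CD11c, was 39.2 and 267 in the wild type and 89.8 and 529 in AIM-/-. Gpnmb was at least 5.13-fold higher and Ccr2, the receptor for the chemokine CCL2, at least 2.63-fold higher, with 6-week signals not well above background (adjusted p = 0.0956 and 0.0596). In whole liver RNA, more cells of a type and more RNA per cell cannot be told apart.

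The 22 markers of resident Kupffer cells differed by less. None passed, both 12-week arrays lay above both 6-week arrays for 10 and below for 3, 0 were at least 2-fold apart in both genotypes, and the median change was 0.03 in the wild type and 0.31 in AIM-/-. Clec4f, a lectin found on Kupffer cells, was 9253 and 9463 in the wild type and 7049 and 7982 in AIM-/-. Timd4, a receptor for dying cells that marks long-lived Kupffer cells, was 256 and 164 in the wild type and 156 and 72.6 in AIM-/- (-0.87, SE 0.49, adjusted p = 0.396), with overlapping weeks. The difference between the 2 macrophage lists was not tested.

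Chemokines and antigen presentation genes were also higher without passing the threshold. Of 23 chemokine and cytokine genes 14 were measured, 11 of them lay higher on both 12-week arrays and 6 were at least 2-fold higher in both genotypes. The median change was 1.07 in the wild type and 1.15 in AIM-/-, and the median of the means was 1.21, or 0.92 with bounds. Over the 10 measured on all 4 arrays, 7 lay higher and 2 were at least 2-fold higher in both genotypes. Ccl2, the main attractant of monocytes, was 125 and 525 in the wild type and 257 and 909 in AIM-/- (1.95, SE 0.45, adjusted p = 0.122). Of 15 measured genes of antigen presentation, 6 were at least 2-fold higher in both genotypes. These 6 were the class II genes Cd74, H2-Aa, H2-Ab1, H2-Eb1 and H2-DMb1 and their master activator Ciita. H2-Ab1 was 2388 and 6197 in the wild type and 2623 and 9635 in AIM-/- (1.63, SE 0.40, adjusted p = 0.128), while the class I genes H2-K1 and H2-D1 differed by 0.11 and 0.13. Of 22 T and NK cell markers 10 were measured, with a median change of 0.28 in the wild type and 1.35 in AIM-/-. Cd3d, a chain of the T cell receptor complex, was 60.6 and 76.3 in the wild type and 46.5 and 178 in AIM-/-. Of 32 interferon response genes 30 were measured, with a median of the mean changes of 0.04 that took either sign with the processing. Of 15 neutrophil markers 5 were measured; the granule genes Mpo, Elane and Ltf were not measured. Of 14 B cell and plasma cell markers 8 were measured, at a median of -0.02.

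Matrix genes and endothelial markers moved in the same direction. Of 30 stellate cell and fibrosis genes 25 were measured, 1 rose, 7 were at least 2-fold higher in both genotypes, and both 12-week arrays lay above both 6-week arrays for 20. The median change was 0.85 in the wild type and 0.77 in AIM-/-. Over the 22 measured on all 4 arrays none passed, 6 were at least 2-fold higher in both genotypes and 18 lay higher on both 12-week arrays. Mmp13, an interstitial collagenase gene, was 6.63 and 62.3 in the wild type and 5.88 and 117 in AIM-/- and rose at least 3.04-fold (adjusted p = 0.0362). It was the 1 member of the list that passed the filter only through the 12-week arrays, which fixed its direction. Mmp13 was 5.88 and 7.02 on chow in the wild type and AIM-/-, and 43.7 and 29.5 at 20 weeks. Col1a1, the chain of type I collagen, was 41.2 and 696 in the wild type and 279 and 868 in AIM-/-, a change of 4.08 in the wild type and 1.64 in AIM-/- (mean 2.86, SE 0.78, adjusted p = 0.147). Col3a1 was 330 and 1779 in the wild type and 779 and 2183 in AIM-/-. The AIM-/- array at 6 weeks lay above the wild-type array at 6 weeks for both collagens. Acta2, the smooth muscle actin of activated stellate cells, differed by 0.12 on its brighter probe (SE 0.16, adjusted p = 0.742), with overlapping weeks. Its other probe differed by 1.86, and the mean of both by 0.99 (adjusted p = 0.107). Of 17 measured endothelial markers 16 lay higher on both 12-week arrays, with a median change of 0.66 in the wild type and 0.48 in AIM-/-, and Lyve1, a hyaluronan receptor of sinusoidal endothelium, was 75.9 and 401 in the wild type and 177 and 640 in AIM-/- (2.13, SE 0.53, adjusted p = 0.132).

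**Figure D3:**
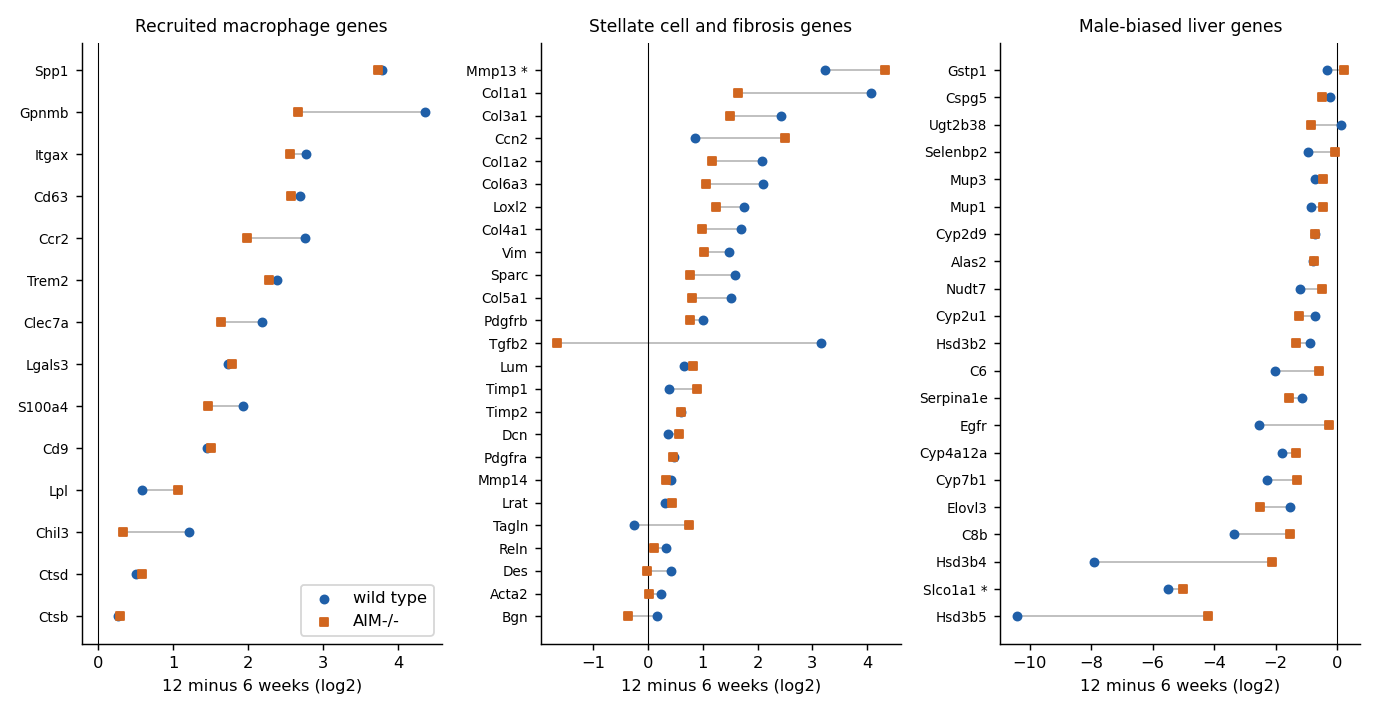
Change from 6 to 12 weeks (log2) of every measured member of the recruited macrophage list (14 genes), the stellate cell and fibrosis list (25 genes) and the male-biased liver list (21 genes), in the wild type (blue circles) and in AIM-/- (orange squares). All 14 macrophage genes lie above 0 in both genotypes, and Slco1a1 and Mmp13, marked with a star, are the members that passed the threshold.

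Genes known from liver tumours and fetal liver included some of the largest differences. Of 26 listed 16 were measured, Cdkn3 alone rose, and 9 were at least 2-fold higher in both genotypes, 8 of them among the 9 measured on all 4 arrays. The median change of the 16 was 1.22 in the wild type and 2.30 in AIM-/-, and over the 9 it was 2.04 and 2.24. Of the 16, 3 passed the filter through the arrays of a single week, which fixed their direction. The list is not separate from the others. Birc5 is also in the mitosis list, Cbr3 and Akr1b7 in the NRF2 list and Lcn2 in the acute phase list, and Cdkn3 was named above with the cell cycle genes. Ly6d, a surface protein gene little expressed in normal liver, was 772 and 18197 in the wild type and 4666 and 35426 in AIM-/- (3.74, SE 0.82, adjusted p = 0.114). Scd2, a stearoyl-CoA desaturase gene with its main expression outside the adult liver, was 174 and 926 in the wild type and 242 and 1866 in AIM-/- (2.68, SE 0.30, adjusted p = 0.0536). H19, a fetal imprinted RNA, was 24.4 and 45.9 in the wild type and 14.997 and 353 in AIM-/-, with 6-week signals not well above background. Afp, alpha-fetoprotein, was 193 and 284 in the wild type and 151 and 393 in AIM-/- (0.97, SE 0.39, adjusted p = 0.257). Gpc3 and Igf2, likewise in the list, were not measured.

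Stress genes varied by pathway. Of 20 targets of p53 and cell cycle inhibitors 19 were measured, none passed, 13 lay higher on both 12-week arrays, and the median change was 0.56 in each genotype. Of the 19, 2 passed the filter through the arrays of a single week, which fixed their direction. Over the 17 measured on all 4 arrays 11 lay higher, with medians of 0.53 in the wild type and 0.46 in AIM-/-. Phlda3, a p53 target that restrains AKT, was 199 and 1544 in the wild type and 541 and 2296 in AIM-/- (2.52, SE 0.49, adjusted p = 0.102). Cdkn1a, the inhibitor p21, was 43.4 and 539 in the wild type and 422 and 1150 in AIM-/- (2.54, SE 1.22, adjusted p = 0.334). Of 29 measured NRF2 and oxidative stress genes 5 were at least 2-fold higher in both genotypes, and the median change was 0.73 in the wild type and 0.24 in AIM-/-. Among these, Cbr3, a carbonyl reductase gene, was 202 and 3016 in the wild type and 758 and 3316 in AIM-/- (3.01, SE 0.60, adjusted p = 0.102), and Mt2, a metallothionein gene, was 779 and 4560 in the wild type and 2222 and 15028 in AIM-/-. Of 18 measured immediate early genes, which respond quickly to growth signals and to handling, 12 lay higher on both 12-week arrays, with a median change of 0.85 in the wild type and 0.92 in AIM-/-. Of the 18, 2 passed the filter only through the 12-week arrays, and over the 14 measured on all 4 arrays the medians were 0.62 and 0.60. The median of their mean changes was 1.10, against 0.37 without the wild-type 6-week array and 0.36 without the AIM-/- 12-week array, and 0.47 over the 14. Their part in the other differences was not tested.

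Several of the rises with the largest coefficients were genes with little known role in liver. Hemgn, an erythroid nuclear protein gene, was 6.03 and 153 in the wild type and 5.79 and 76.3 in AIM-/- and rose at least 3.85-fold (adjusted p = 0.0318). Tinag, a basement membrane protein gene, rose at least 4.58-fold, Cts7, a placental cathepsin gene, at least 2.79-fold, and Dgkb, a diacylglycerol kinase gene, at least 2.55-fold (adjusted p = 0.0318, 0.0318 and 0.0362). Hemgn, Cts7 and Dgkb had signals of 11.4 or less on all arrays of chow, 6 and 20 weeks. The filter took in genes this dim at 6 weeks only where both 12-week arrays were well above background. It thereby fixed that their signal was higher at 12 weeks in both genotypes. Of 13 listed erythroid genes 5 were measured and none passed, and the haemoglobin gene Hba-a1 differed by 0.41. Among rises measured on all 4 arrays, Pf4, platelet factor 4, was 145 and 434 in the wild type and 183 and 651 in AIM-/- and rose by 1.71 (SE 0.15, adjusted p = 0.0354). Ly9, a receptor of lymphocytes, was 56.4 and 150 in the wild type and 49.4 and 145 in AIM-/- and rose by 1.48 (SE 0.14, adjusted p = 0.0362). Nol3, an apoptosis repressor gene, rose by 1.74 and Pnpla5, a lipid droplet lipase gene, by 1.86 (SE 0.15 and 0.16, adjusted p = 0.0354 for both).

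Genes expressed more in male than in female liver were lower at 12 weeks. Of 27 listed 21 were measured, 1 fell and 8 were at least 2-fold lower in both genotypes. Both 12-week arrays lay below both 6-week arrays for 15 and above for 0, against 30.2% and 22.5% of all genes. Of the 21, 2 passed the filter through the arrays of a single week, Hsd3b5 among them, which fixed their direction. Among the 18 measured on all 4 arrays, 6 were at least 2-fold lower in both genotypes and 13 lay lower on both 12-week arrays. Over these 18 the medians were -1.05 in the wild type and -0.81 in AIM-/-. The median change of all 21 was -1.14 in the wild type and -0.87 in AIM-/-. Slco1a1, the uptake transporter of organic anions typical of male liver, was 2795 and 62.1 in the wild type and 850 and 26.0 in AIM-/-. It fell by 5.26 (SE 0.46, adjusted p = 0.0354), with 1 of the 12-week signals well above background; its probe lies at chr6:141871298-141871357 of mm8. Hsd3b5, a steroid reductase gene of male liver, was 11671 and 8.47 in the wild type and 139 and 7.60 in AIM-/-, at least 42.9-fold lower at 12 weeks (adjusted p = 0.122). Against the background floor it was at least 384-fold lower in the wild type and at least 4.79-fold lower in AIM-/-, and the 6-week levels differed between the genotypes. Hsd3b4, a near relative whose probe may share signal with Hsd3b5, was 11318 and 47.6 in the wild type and 158 and 36.7 in AIM-/-. Cyp4a12a, a fatty acid hydroxylase gene, was 4865 and 1387 in the wild type and 4047 and 1611 in AIM-/- (-1.57, SE 0.27, adjusted p = 0.0931). Elovl3 was 4829 and 1681 in the wild type and 10364 and 1825 in AIM-/- (-2.01, SE 0.62, adjusted p = 0.178). Mup1, a major urinary protein gene with near-identical copies that one probe cannot separate, was 449690 and 248530 in the wild type and 299710 and 216800 in AIM-/-. Beside this list, the Y-linked gene Ddx3y differed by 0.08 and Eif2s3y by -0.07 between the weeks.

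Of 27 genes expressed more in female liver 18 were measured. None passed, 13 lay higher and 2 lower on both 12-week arrays, and the median change was 0.98 in the wild type and 0.39 in AIM-/-. Of the 18, 2 passed the filter through the arrays of a single week, which fixed their direction. Over the 14 measured on all 4 arrays 9 lay higher and 2 lower, with medians of 0.683 in the wild type and 0.235 in AIM-/-. Cyp2b9, a cytochrome P450 gene typical of female liver, was 69.4 and 17710 in the wild type and 10233 and 14420 in AIM-/-. Its change was 7.995 in the wild type and 0.49 in AIM-/- (mean 4.25, SE 1.96, adjusted p = 0.317). Cyp2b13 was 14.6 and 3546 in the wild type and 2092 and 2459 in AIM-/-. Only the wild-type array at 6 weeks was low for these 2 genes. Among genes of growth hormone and IGF signalling, 16 of 19 were measured, none passed, and the median change was -0.42 in the wild type and -0.24 in AIM-/-. Igf1 was 31778 and 20385 in the wild type and 25597 and 20048 in AIM-/- (-0.50, SE 0.21, adjusted p = 0.277).

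Besides Slco1a1, 8 genes fell. EG238395, a name that RefSeq gives as a synonym of the serine protease inhibitor gene Serpina3j, was 7940 and 1553 in the wild type and 5230 and 1129 in AIM-/-. It was the 1 fall measured well above background on all 4 arrays, by 2.28 (SE 0.17, adjusted p = 0.0318), and it belongs to a family of close copies that a probe may not separate. Atp12a, a proton and potassium pump gene, was 150 and 40.8 in the wild type and 87.6 and 22.9 in AIM-/-. It fell by 1.91 as measured (SE 0.19, adjusted p = 0.0429), but its AIM-/- signal at 12 weeks was not well above background. The other 6 falls, 4931417E11Rik among them, had 12-week signals not well above background. Cyp2c54, a cytochrome P450 gene, was 621 and 65.1 in the wild type and 406 and 61.1 in AIM-/- (-2.99, SE 0.47, adjusted p = 0.0911). Of 29 measured genes of xenobiotic metabolism 4 were at least 2-fold lower in both genotypes while 2 were higher. As a list these genes were not lower. Both 12-week arrays lay above both 6-week arrays for 13 and below for 9, with a median change of 0.34 in the wild type and 0.195 in AIM-/-. Cfd, the complement protease also called adipsin, was 15905 and 748 in the wild type and 2247 and 761 in AIM-/- (-2.99, SE 0.85, adjusted p = 0.16). Of 10 fat cell markers, Cfd among them, 7 were measured, 1 of these through the arrays of a single week. At least 2-fold higher in both genotypes were 3 of the 7, and 1 was lower. Both 12-week arrays lay above both 6-week arrays for 4 and below for 3, with a median change of 0.81 in the wild type and 0.095 in AIM-/-. The fat cell genes Adipoq and Lep were not measured, and of 17 genes of pancreas and gut 2 were measured.

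**Figure D4:**
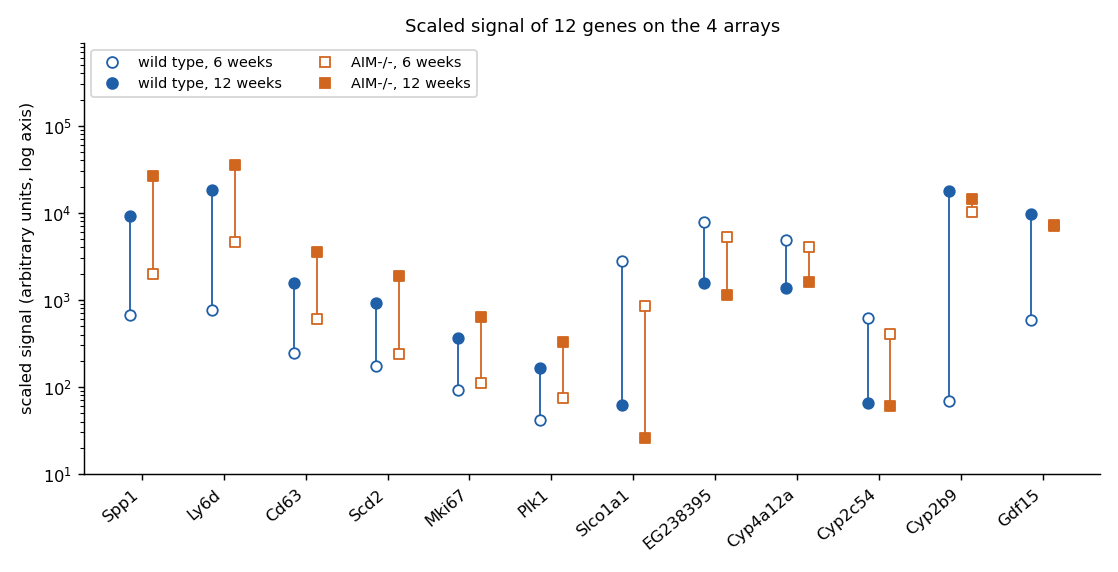
Scaled signal (arbitrary units, log axis) of 12 genes on the 4 arrays, with open symbols for 6 weeks, filled symbols for 12 weeks, circles for the wild type and squares for AIM-/-. Spp1, Ly6d, Cd63, Scd2, Mki67 and Plk1 were higher at 12 weeks in both genotypes, Slco1a1, EG238395, Cyp4a12a and Cyp2c54 were lower in both, and Cyp2b9 and Gdf15 differed between the weeks mainly in the wild type.

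Genes of the urea cycle, bile acid synthesis, one-carbon metabolism and coagulation were mostly lower at 12 weeks, by modest amounts. Not all lists of hepatocyte metabolism were lower. No member of the lists in this paragraph passed the threshold. In the urea cycle and amino acid catabolism list, both 12-week arrays lay below both 6-week arrays for 22 of 24 genes, with a median change of -0.63 in the wild type and -0.53 in AIM-/-. Cps1, the first enzyme of the urea cycle, was 27165 and 11920 in the wild type and 15518 and 10580 in AIM-/- (-0.87, SE 0.31, adjusted p = 0.22). Hpd, an enzyme of tyrosine breakdown, was 56955 and 26027 in the wild type and 38851 and 17939 in AIM-/- (-1.12, SE 0.28, adjusted p = 0.132). Of 19 measured genes of bile acid synthesis and its sensor FXR, 14 lay lower on both 12-week arrays, with a median of -0.39 in the wild type and -0.57 in AIM-/-. Slc10a1, the uptake transporter of bile acids, was 4986 and 2667 in the wild type and 6185 and 1415 in AIM-/- (-1.52, SE 0.32, adjusted p = 0.108). Cyp7a1, the rate-limiting enzyme of bile acid synthesis, differed by -0.15 with overlapping weeks. Of 19 measured genes of methionine and one-carbon metabolism 14 lay lower, with a median of -0.33 in the wild type and -0.46 in AIM-/-. Bhmt, which returns homocysteine to methionine, was 53075 and 22300 in the wild type and 57547 and 24416 in AIM-/-. Of 22 coagulation factor genes 17 lay lower, with a median of -0.46 in the wild type and -0.13 in AIM-/-. Of 28 subunit genes of the mitochondrial respiratory chain 22 overlapped between the weeks, at a median of -0.08, and of 16 measured clock genes 14 overlapped, at a median of -0.15. Acute phase genes split: of 29, 9 lay higher and 13 lower, with Orm3 at 467 and 2038 in the wild type and 881 and 2666 in AIM-/-, and Serpina3m at 296660 and 112250 in the wild type and 179750 and 104050 in AIM-/-.

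Lipid gene lists had higher median changes in the wild type than in AIM-/-, a difference that was not tested. The median change of 22 measured genes of lipogenesis and desaturation was 0.62 in the wild type and 0.03 in AIM-/-, and none passed. Scd1, the main stearoyl-CoA desaturase of liver, was 71123 and 145200 in the wild type and 123400 and 128470 in AIM-/- (0.54, SE 0.26, adjusted p = 0.326). Srebf1, the transcription factor gene of lipogenesis, was lower in both, 97907 and 58132 in the wild type and 66336 and 33506 in AIM-/- (-0.87, SE 0.27, adjusted p = 0.177). Of 20 measured lipid droplet genes 10 lay higher on both 12-week arrays, with a median change of 0.36 in the wild type and 0.07 in AIM-/-. Cidec, which fuses lipid droplets, was 9027 and 37395 in the wild type and 21941 and 48119 in AIM-/- (1.59, SE 0.47, adjusted p = 0.167). Cidea was 4204 and 24809 in the wild type and 17763 and 25056 in AIM-/-. Genes of cholesterol synthesis and of PPAR alpha and fatty acid oxidation had median changes of 0.27 and 0.14 in the wild type and -0.08 and -0.24 in AIM-/-, and the sign of their mean depended on the processing.

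Some genes differed between the weeks in 1 genotype. Gdf15, a stress cytokine gene, was 594 and 9569 in the wild type and 7304 and 7007 in AIM-/-, so that the wild-type array at 6 weeks was the only low one. Genes of endoplasmic reticulum stress had a median change of -0.78 in the wild type and 0.08 in AIM-/- (24 genes). Hspa5, the chaperone BiP, was 31502 and 14506 in the wild type and 20452 and 19680 in AIM-/-. Asns, asparagine synthetase, was 649 and 114 in the wild type and 82.6 and 121 in AIM-/-, high on the wild-type array at 6 weeks alone. At least 2-fold in opposite directions were 89 genes (0.634%), 20 of them well above background on all 4 arrays. With 1 array for each genotype and week, a difference between the genotypes in their change has no spread of replicates to be set against. It is itself part of the spread in the fit and was not tested.

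**Figure D5:**
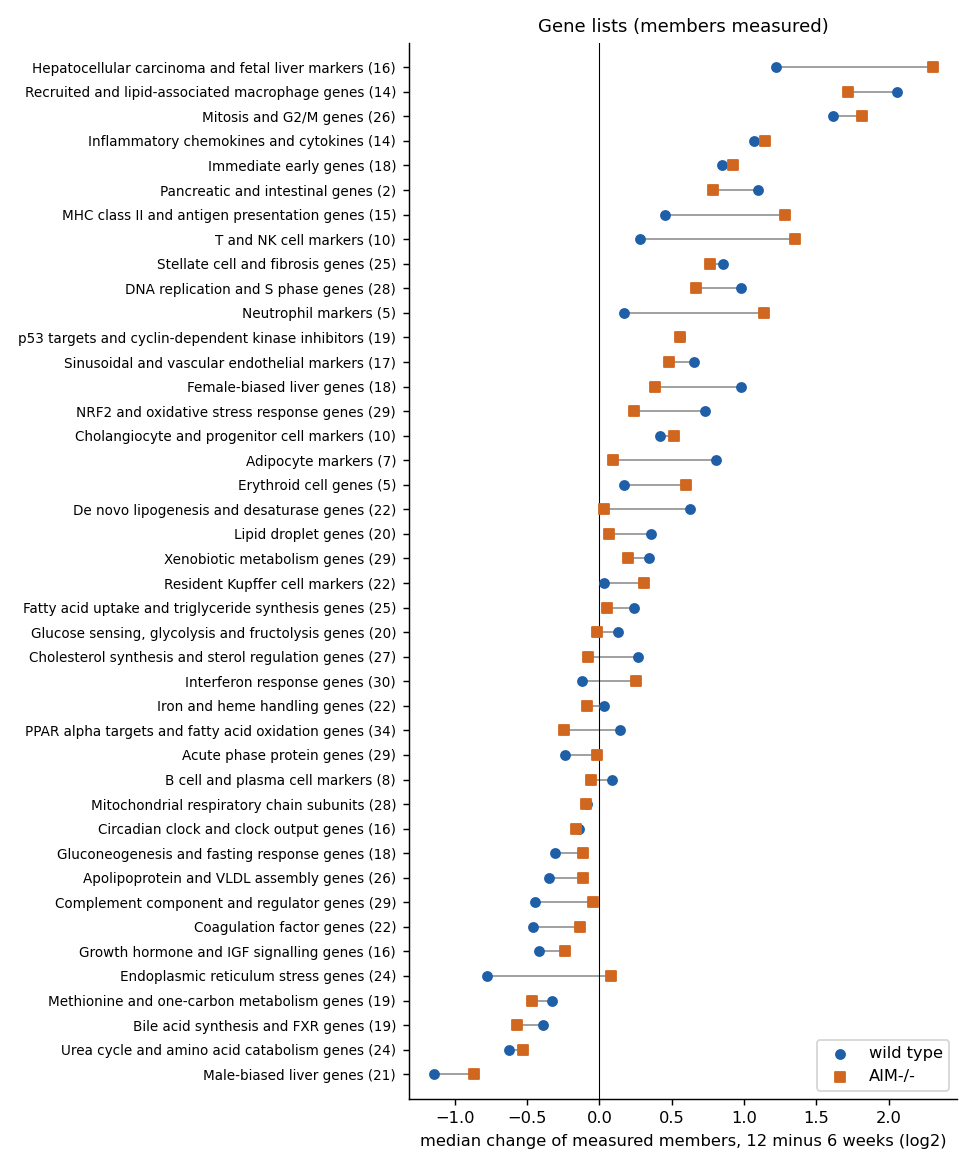
Median change from 6 to 12 weeks (log2) of the measured members of 42 gene lists, in the wild type (blue circles) and in AIM-/- (orange squares), ordered by the median of the mean changes, with the number of members measured after each name. Tumour and fetal liver, recruited macrophage and mitosis lists stand highest, male-biased liver genes lowest, and endoplasmic reticulum stress genes are among the lists where the genotypes lie farthest apart.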

How the data were processed

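The processed signal intensity of each spot, as the authors deposited it, came from Feature Extraction (9.5 in the submitters' processing notes; 9.5.3.1, build mm8 and array design 014868 per the file headers) and was used for the 4 arrays compared and the other 4 of the series. The deposited value table holds log2 values. Its columns matched the log2 processed signal minus the array's 75th percentile within 0.01 for over 99% of probes on each array, and it served as an alternative. After removal of 1639 control spots and of 75 to 130 outlier spots on each array, repeat spots were averaged and the 75th percentile was subtracted on the log2 scale. Probes well above background on at least 2 of the 4 arrays were kept (19451), and the brightest stood for its gene. No probe was saturated. RefSeq accessions named 24375 of 41174 probes, and 16799 kept the file's name. limma 3.58.1 in R 4.3.3 fitted week (4 levels) and genotype to all 8 arrays (3 residual degrees of freedom), and this was checked on simulated data. Other steps used Python 3.11.15, pandas 2.3.3, numpy 2.4.6, matplotlib 3.10.9, jsonlite 2.0.0 and the R package data.table (1.17.8). The 42 lists (983 entries, 828 measured), the members and the rules were chosen with earlier results of these data known. The rule named the 15 largest rises and falls, the 10 largest each way by the smaller of the genotypes' changes, up to 4 members per list and the 12 opposite genes. Other genes were named after their values were seen, for their roles. The number of arrays limits the precision.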

Additional observations from a re-analysis of the deposited data

Results flagged for a closer look

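The 12 genes with the largest opposite changes from 6 to 12 weeks were set apart because the wild type moved one way and AIM-/- the other, with 1 array for each genotype and week. The difference between the genotypes was not tested. Aipl1, 1700017G19Rik, Ccdc66, Tcra, Tff3 and Gnao1 were lower at 12 weeks in the wild type and higher in AIM-/-, and as measured the AIM-/- change exceeded the wild-type change by 8.31, 8.17, 7.20, 6.67, 6.16 and 6.12 on the log2 scale. Gpm6b, Gng13, Xist, Dnah5, Kif11 and Olfr26 went the other way, and their differences as measured, AIM-/- minus wild type, were -8.61, -7.50, -6.94, -6.30, -5.26 and -5.12. Each of the 12 was well above background on 1 array of 6 weeks and 1 of 12 weeks, except Tff3, which was so on both arrays of 12 weeks. The differences therefore rest on signals below background, and only bounds can be read from them. With such signals set at the background floor, the first 6 differed by at least 6.45, 3.63, 4.03, 3.13, 5.60 and 1.58, and the other 6 by -4.18, -2.95, -3.52, -3.12, -1.57 and -1.55 or beyond. Xist, the RNA that silences one X chromosome in female cells, reached 149 in AIM-/- at 6 weeks and 64.5 in the wild type at 12 weeks, against 12.8 and 6.10 on the other two and 775 and 735 on the 20-week arrays. Ddx3y on the same 4 arrays was between 994 and 1111.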

How the results depend on the processing

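The 40 calls rested on the estimate of the spread. With probes well above background on all 4 arrays limma called 11, without the chow arrays 4, and without a genotype term 63, of which 29 were among the 40. It called 0 with no filter on dim probes (2940 at an unadjusted p under 0.05), on the 4 arrays alone (2519) and without the 20-week arrays (2396), and 0 to 2 with 1 of the 4 arrays left out. Quantile and median scaling, normexp, the deposited table and the mean of probes gave 27 to 42. The 27 of normexp shared 12 with the 40. The 545 genes 2-fold apart in both genotypes became 194 with normexp, 320 with all 4 arrays above background, 319 with both arrays of each genotype above background, 1394 at 1.5-fold and 200 at 3-fold. The counts in one genotype, under settings chosen after seeing the data, went from 1314 to 521 (normexp) 829 (all 4 arrays) and 1928 (no filter) in the wild type, and from 1270 to 548, 820 and 1923 (no filter) in AIM-/-. The cause was not tested. The sign turned for Alb with quantile scaling (0.019), Ccdc66 and Dnah5 with normexp (-0.019 and 0.13), Dnah5 and Gpm6b with no filter (0.21 and 0.18) and Ddx3y with the mean of probes (-0.082). With 1 array left out it turned in 34 of 416 values of named genes, in 20 genes: their lowest and highest changes were 1700017G19Rik -3.38 to 2.92, Acta2 -0.046 to 0.29, Aipl1 -3.17 to 2.46, Asns -2.85 to 0.89, Ccdc66 -2.25 to 2.56, Clec4f -0.036 to 0.25, Cyp7a1 -0.74 to 0.44, Ddx3y -0.033 to 0.19, Dnah5 -2.79 to 2.77, Eif2s3y -0.23 to 0.088, Gdf15 -0.070 to 4.02, Gnao1 -2.63 to 2.54, Gng13 -2.03 to 3.81, Gpm6b -5.11 to 1.97, Kif11 -1.18 to 2.92, Melk -1.86 to 3.02, Olfr26 -1.09 to 2.79, Tcra -3.07 to 3.63, Tff3 -3.58 to 3.11, Xist -3.50 to 1.21. Medians of 16 lists moved with 1 array left out, and of 15 lists under the other settings. Each group has replicate 1 alone, so no replicate number pairs arrays. The weeks were paired by genotype, because the genotype term sets them against each other within a genotype. The slide block could not be fitted apart from genotype. Signals near background limit what the dim genes show.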
